A study of Drosophila melanogaster with 28 samples.

Results

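In testes of male Drosophila melanogaster that lack Mettl1, 226 transcripts carried markedly fewer ribosome footprints than in wild-type (WT) testes while their RNA-seq level in the earlier of 2 sample sets stayed close to WT. They were chosen from 18851 transcripts by 3 criteria on CPM, the count of a transcript per 1000000 counts in its library. Their mean WT footprint level was at least 10 CPM in both testis sets, their footprint change was -1 or lower in both sets, and their RNA-seq change in the first set lay between -0.5 and 0.5. A change here is the log2 ratio of mean knockout CPM plus 1 to mean WT CPM plus 1, so it understates the change of low transcripts. Of the 18851 transcripts, 9254 reached the WT footprint level and 5997 of those also met the RNA-seq criterion. The 226 transcripts were 3.77% of the 5997, and the 5771 that were left are used for comparison. Because transcripts listed close together often had near-identical counts, the 226 transcripts were also grouped into 188 loci, of which 25 held several transcripts and the largest held 6. The testis footprints of both sets and the RNA-seq of the first set made the choice, so these values are a description and were not tested.

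Mettl1 is the catalytic subunit of an enzyme that places m7G, a methylated guanosine, in the variable loop of a subset of tRNAs. Such modifications are known to keep tRNAs stable and decoding efficient. Ribosome profiling reads out the mRNA fragments (footprints) that bound ribosomes shield from nuclease, so that its counts follow how many ribosomes sit on a transcript, whereas RNA-seq follows the amount of the transcript itself. In the fly male germ line most transcription ends before the meiotic divisions, and many mRNAs are stored and translated only later in spermatids, so that transcript level and ribosome occupancy are often uncoupled in this tissue.

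WT flies were y1 w1118, and the protocol names Mettl1KO1 as the knockout line for testis. Males were 2 to 3 days old, each sample pooled 600 pairs of testes, and dissection was done in the presence of 100 µg/ml cycloheximide, which arrests ribosomes on mRNA. An earlier set (set 1) and a later set (set 2) of testis samples each held 2 WT and 2 knockout libraries per assay, and body held 2 libraries each of WT and of the lines labelled KO1 and KO2 per assay. The digit after the knockout label in the testis titles was taken as a replicate number, but it could name a line. The deposited data names of the second-set footprint libraries carry KO2 for both knockouts, so which line that set used is not settled. If the digit names a line, the knockout libraries of a set are not replicates of a single line, and their spread includes the difference between lines. Age and preparation of the body samples, and whether bodies still contained testes, are not given in the sources used here. Nothing in the labels says that replicates were separate crosses or days, so p-values measure the spread between these libraries, which may be technical.

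Depth differed between the assays. Over the 18851 transcripts, totals were 410019 to 3386070 counts in set 1 footprints, 6732034 to 13217075 in set 2 footprints and 2033209 to 9936190 in body footprints. RNA-seq totals were 11486631 to 17707128 in set 1 but 149745 to 209202 in set 2 and 49608 to 95749 in body, which limits what the latter 2 can resolve. The RNA-seq of set 2 also stood apart in content, since the 226 transcripts made up 12.1% ± 0.159 (SD, n = 2) of the WT library in set 1 and 2.96% in both WT libraries of set 2. Their WT RNA-seq levels in the 2 sets had a Spearman rho of 0.69 across the 188 loci, against 0.95 for their WT footprint levels. The files hold FlyBase transcript identifiers without gene names, and 0 of the 226 identifiers could be matched to a gene in the reference table. The transcripts are therefore described by identifier, level, length and tissue, without names, roles or sequences, and the targeted gene and tissue markers were not analysed here. How reads shared by isoforms or by overlapping and near-identical genes were counted is not given in the sources used here, so the count of any named transcript may include reads of another.

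The 226 transcripts held a large share of WT testis translation. Their footprints made up 8.29% ± 0.0177 (SD, n = 2) of WT libraries and 2.13% ± 0.197 (n = 2) of knockout libraries in set 1. In set 2 the shares were 9.0% ± 0.347 in WT and 2.56% ± 0.421 in knockout (n = 2 each). The knockout libraries of both sets lay far below their WT libraries, with no overlap. In first-set RNA-seq the same transcripts made up 12.1% ± 0.159 of WT and 12.8% ± 0.853 of knockout counts (n = 2 each), so the difference was within the spread of the knockout libraries. Reads assigned to several transcripts of a locus may enter these shares more than once. With 1 transcript per locus, footprint shares in set 1 were 6.4% and 6.34% in WT and 1.6% and 1.81% in knockout libraries. In set 2 they were 6.86% and 7.26% in WT and 2.26% and 1.84% in knockout. Counted in this way, first-set RNA-seq shares were 8.55% and 8.7% in WT and 9.57% and 8.68% in knockout. In bulk tissue, fewer cells of a type and less RNA or fewer ribosomes per cell cannot be told apart.

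**Figure D1:**
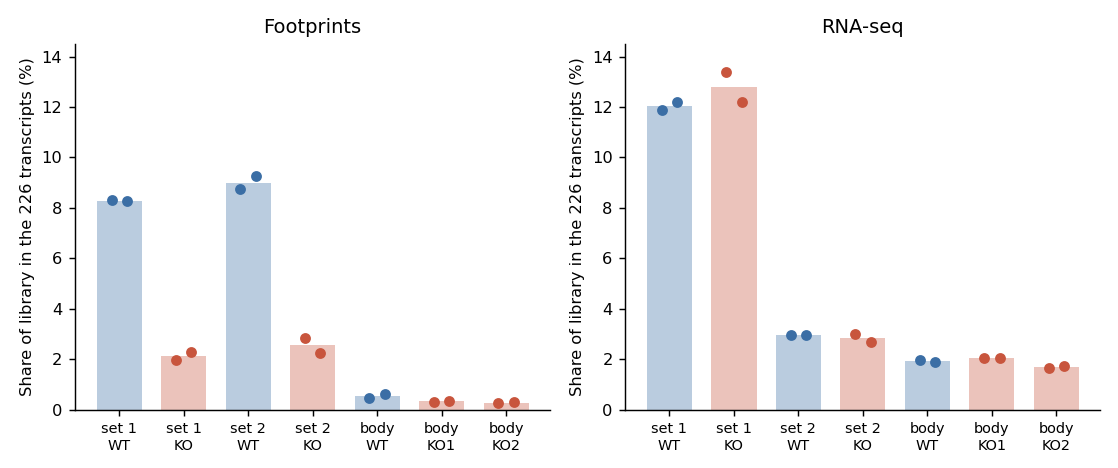
Share of each library's counts, in percent, taken by the 226 transcripts, by assay, tissue and genotype; each point is 1 library and each bar the mean of 2. Testis footprints are at 8.29% in WT and 2.13% in knockout in set 1 and at 9.0% and 2.56% in set 2, set 1 RNA-seq is at 12.1% and 12.8%, and body footprints are under 1% in each group with WT highest.

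Footprints of the median transcript were also several-fold lower. In set 1 its footprint level was 168 and 160 CPM in the WT libraries and 46.3 and 55.9 CPM in the knockout libraries. In set 2 it was 184 and 180 CPM in WT and 65.9 and 55.6 CPM in knockout. The knockout medians of the 2 sets thus ranged from 46.3 to 65.9 CPM, a description in the libraries that chose the transcripts. The median footprint change was -1.68 in set 1, with a range from -4.60 to -1.004, and -1.64 in set 2, with a range from -4.41 to -1.01. The lowest value of set 1 rests on a single knockout count. Among the 5771 comparison transcripts, the median change was 0.30 in set 1 and 0.16 in set 2, so that the bulk of testis footprints moved slightly the other way on the CPM scale. With TMM scaling, which sets the bulk near 0, 271 transcripts met the same criteria, and 193 of them were among the 226.

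The depth of the difference varied among the transcripts, and it did so alike in both sets. A change of -2 or lower was seen for 81 transcripts in set 1, for 72 in set 2 and for 63, in 52 loci, in both. A change of -3 or lower was seen for 15 in set 1 and 7 in set 2. Across the 188 loci Pearson's r between the changes of the sets was 0.83 and Spearman's rho was 0.74, given as a description, since loci are not independent replicates and both values had to lie below -1. In both sets all 226 transcripts had both knockout libraries below both WT libraries, which the choice of transcripts nearly fixes. Of all 9254 transcripts at the WT level, 22.3% in set 1 and 29.7% in set 2 did so. The threshold cut through a continuous range, with 37 transcripts within 0.1 inside it and 31 within 0.1 outside. A pair of transcripts just inside, with the same values, had changes of -1.004 and -1.04 in the 2 sets, and the nearest just outside had -1.04 and -0.998.

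**Figure D2:**
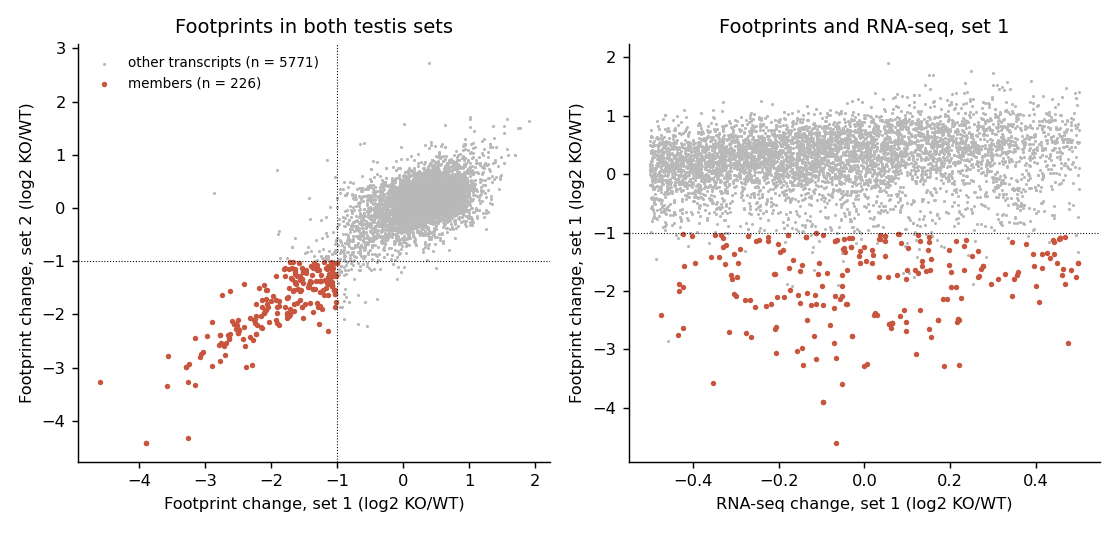
Left, footprint change in set 2 against that in set 1; right, footprint change against RNA-seq change in set 1, all as log2 of knockout over WT (CPM plus 1). Each point is a transcript, and the 226 members lie at -1 or lower in both sets and merge with the 5771 other transcripts at the dotted thresholds.

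The lowest footprint change averaged over both sets belonged to FBtr0074950 and FBtr0300858, which share nearly all counts and form a single locus. Footprints of FBtr0074950 were 142 and 148 CPM in WT and 12.2 and 5.37 CPM in knockout libraries of set 1. In set 2 they were 178 and 179 CPM in WT and 10.9 and 3.95 CPM in knockout. WT was thus 16.5-fold higher in set 1 and 24.1-fold higher in set 2, with knockout libraries that differed among themselves by more than the WT libraries did but stayed far below them. Its RNA-seq level in set 1 was 482 and 528 CPM in WT and 492 and 452 CPM in knockout, and these ranges overlapped. In the shallow second-set RNA-seq it had 17 and 7 counts (94.7 and 43.8 CPM) in WT and 6 and 6 counts (28.7 and 40.1 CPM) in knockout. There the knockout libraries lay below both WT libraries, with a change of -0.99, and the counts were too low for the transcript to be tested. 

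**Figure D3:**
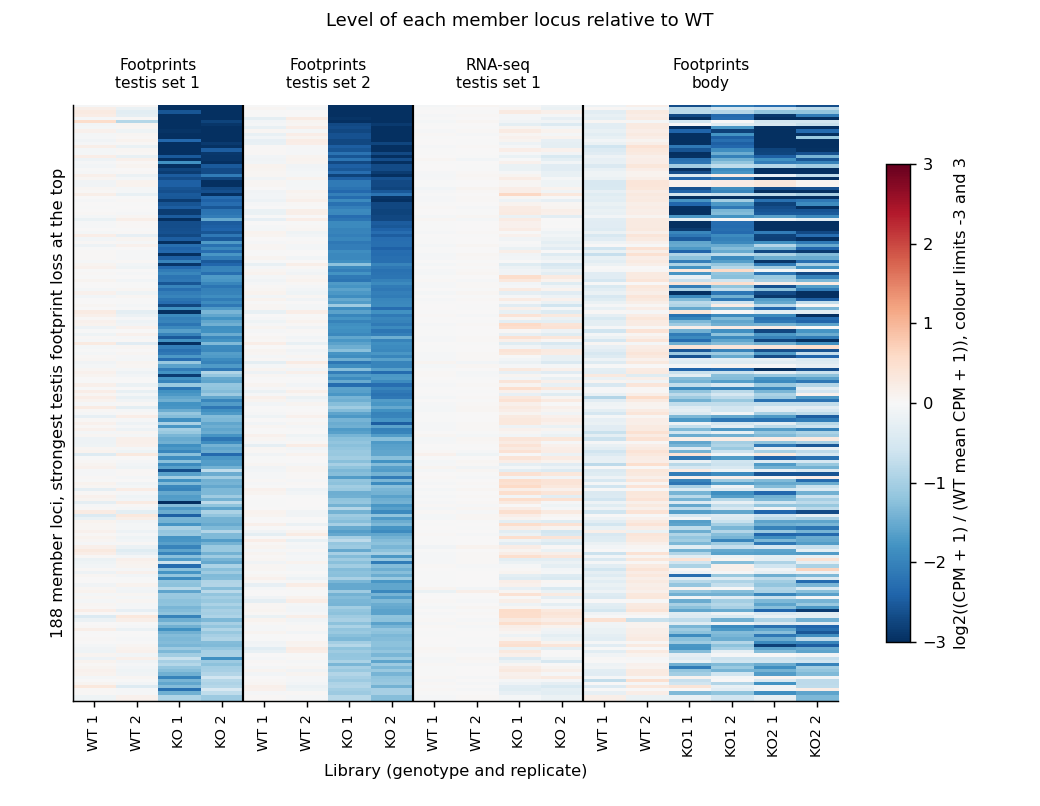
Log2 CPM (plus 1) of each of the 188 loci in each library relative to the WT mean of its assay and tissue; each line is a locus, ordered by its mean testis footprint change, columns are libraries grouped by assay, tissue and genotype. Knockout columns of both testis footprint sets are negative for all loci, those of first-set RNA-seq stay near 0, and those of body footprints are negative for most.

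First-set RNA-seq showed no common direction within the range that the choice allowed. The median change was 0.00, 112 transcripts lay above 0 and 114 below, and 71 lay within 0.1 of 0. The median RNA-seq level was 244 and 251 CPM in the WT libraries and 278 and 248 CPM in the knockout libraries. Both knockout libraries were below both WT libraries for 75 transcripts, against 57.3% of the 9254, and above them for 75, against 25.9%. The 9254 were not limited to steady RNA-seq in these libraries as the 226 were, so these shares are not like for like. Between the RNA-seq change and the footprint change of set 1, r was 0.09 (Pearson) and rho 0.04 (Spearman) across the 188 loci, again a description, since the criteria bound both values. The median ratio of footprint CPM to RNA-seq CPM was 0.682 in WT and 0.178 in knockout for the 226, and 0.963 in WT and 1.25 in knockout for the comparison transcripts. In WT of set 1 these transcripts thus had somewhat fewer footprints per RNA than the others. The ratio was not computed for set 2, whose RNA-seq differed in content. There the median WT levels were 181 CPM in footprints and 53.1 CPM in RNA-seq for the 226. For the others they were 39.3 and 14.6 CPM, so the order seen in set 1 is not shown to hold in set 2. Between the WT ratio of set 1 and the set 2 footprint change, r was 0.04 and rho -0.04 across the 188 loci, a description within values that the criteria bound.

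The transcripts were abundant in testis and mostly short. Lengths are given in units of the deposited length column, whose unit is not stated. The median length was 278.5, with a range from 12 to 1791, against 467 for the comparison transcripts. Of the 226, 41 (18.1%) had a length of 100 or less, against 3.73% of the others, and 16 (7.08%) were longer than 800, against 26.4%. Per 100 units of length, the median WT footprint level in set 2 was 74.2 CPM for the 226 and 8.93 CPM for the others. The higher level per length held within each class, from 311 against 69.1 CPM at 100 or less to 26.0 against 2.40 CPM above 800. The criterion of 10 CPM asks a higher level per length of a shorter transcript, in both groups alike. Length was only weakly related to the footprint change of set 2 across the 188 loci (r 0.20, rho 0.22). Every change lay at -1 or lower by choice, and median set 2 changes were -1.80 at 100 or less, -1.83 above 100 and up to 200, -1.85 up to 400, -1.38 up to 800 and -1.75 above 800.

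**Figure D4:**
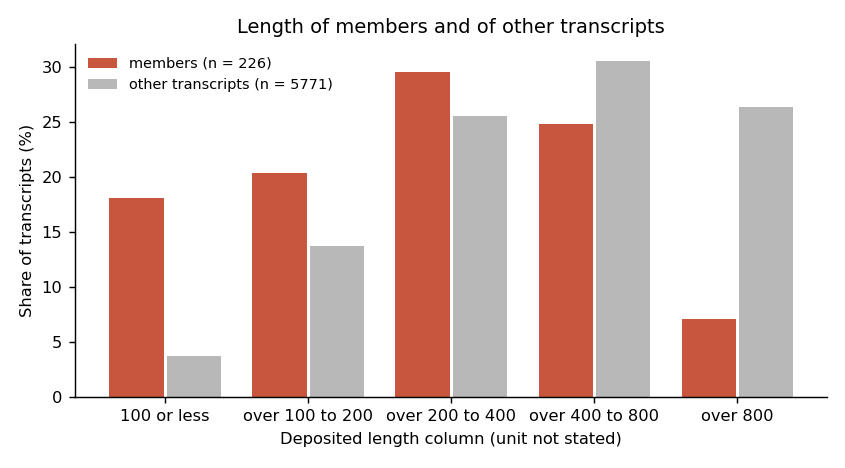
Share in percent of the 226 transcripts (members) and of the 5771 comparison transcripts (other transcripts) in each class of the deposited length column, whose unit is not stated. The members are shifted to short classes, with 18.1% against 3.73% at 100 or less and 7.08% against 26.4% above 800.

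Body changes between genotypes had no part in the 3 criteria, and they allow a test. Body counts entered the choice only through the totals over all 28 libraries by which near-duplicate neighbours were dropped. Footprints of many of the 226 were called lower in both body lines, and none were called higher in either line. In KO1, 101 transcripts in 84 loci fell and 0 rose (edgeR quasi-likelihood test, Benjamini-Hochberg adjusted p under 0.05), while 2.13% of the 13840 transcripts tested fell, 1.02% rose and 3.15% changed in either direction. In KO2, 120 transcripts in 99 loci fell and 0 rose, while 2.86% of all tested fell, 1.71% rose and 4.57% changed. The filter on low counts admitted 163 of the 226. Of these, 70 passed only with the help of a WT library, which favours lower values in knockouts. Of the 93 that would have passed on the knockout libraries, 47 fell in KO1 and 55 in KO2. The share of all transcripts passing in this way that fell was not computed, so these counts have no background. With no filter all 226 were tested, and 116 fell in KO1 and 140 in KO2, with 0 higher, against 2.99% and 3.11% of all transcripts. Both lines were compared with the same WT libraries, so they are not independent.

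Body footprints of the 226 were far fewer than in testis already in WT. The 226 made up 0.548% ± 0.102 (SD, n = 2) of WT body footprints, 0.336% ± 0.0362 of those in KO1 and 0.287% ± 0.00325 in KO2 (n = 2 each). The median level was 6.23 and 8.96 CPM in the WT libraries, 1.79 and 2.51 CPM in KO1 and 1.40 and 1.48 CPM in KO2. Every knockout library was below both WT libraries in this median. Over all 226 the median change was -1.19 in KO1, against -0.03 for the comparison transcripts. It was -1.42 in KO2, against -0.04. In KO1, 177 transcripts had both knockout libraries below both WT libraries and 4 above, against 27.7% and 13.9% of the 9254. In KO2 these counts were 194 and 2, against 27.6% and 13.4%.

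How many transcripts passed the test depended on single libraries. In KO1 the median was -1.77 with all libraries, -1.91 without WT replicate 1 and -1.54 without WT replicate 2. It was -1.51 without KO1 replicate 1 and -1.89 without KO1 replicate 2. In KO2 it was -2.42 with all libraries and -2.26 without WT replicate 2. The DESeq2 Wald test called 61 in KO1 and 82 in KO2. None of these alternatives called a transcript higher.

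As examples, the loci with most WT testis footprints in set 2 were taken, after their values were seen. FBtr0083828, one of 3 transcripts with near-identical counts, had footprints of 3184 and 3295 CPM in WT and 866 and 554 CPM in knockout testis of set 2. In body it had 101 and 155 CPM in WT, 15.2 and 25.1 CPM in KO1 and 10.5 and 12.3 CPM in KO2. The body libraries of each line lay far below WT, with log2 fold changes of -2.59 in KO1 (SE 0.234, edgeR adjusted p = 0.000126) and -3.49 in KO2 (SE 0.255, edgeR adjusted p = 1.47e-05). FBtr0076638 had 3081 and 3155 CPM in WT and 1511 and 1300 CPM in knockout testis of set 2. In body it had 118 and 164 CPM in WT, 31.9 and 43.4 CPM in KO1 and 26.0 and 29.0 CPM in KO2. Its body log2 fold changes were -1.85 in KO1 (SE 0.189, edgeR adjusted p = 0.000256) and -2.34 in KO2 (SE 0.197, edgeR adjusted p = 2.88e-05). Its testis footprint change was -1.15 in set 2 but -1.80 in set 1, the latter close to the body value of KO1. The difference between tissues was not tested. FBtr0074950, with the lowest testis change averaged over both sets, had 17 and 59 footprint counts in WT body. It had 0 and 2 counts in KO1 and 2 and 0 in KO2. Its body log2 fold changes were -4.21 in KO1 (SE 0.669, edgeR adjusted p = 0.00393) and -4.45 in KO2 (SE 0.663, edgeR adjusted p = 0.00172). At so few knockout counts their size is uncertain. When single libraries were left out it ranged from -7.83 to -3.39 in KO1 and from -7.66 to -4.12 in KO2.

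Most of the 226 had far more footprints in testis than in body. The WT footprint level in set 2 testis was at least 10 times that in body, both as CPM plus 1, for 193 transcripts (85.4%), against 18.7% of the comparison transcripts, and the median ratio was 26.6 against 1.88. The WT testis level is part of the choice, and the body level is not. Changes in body followed this ratio. For the 193 transcripts the median WT body level was 5.85 CPM, and the median body change was -1.36 in KO1 and -1.60 in KO2. For the other 33 it was 55.8 CPM, and the median body change was -0.16 and -0.22, while their testis changes had medians of -1.38 in set 1 and -1.39 in set 2. Of these 33 transcripts, 31 were tested in body, and 0 were called in KO1 and 1, which fell, in KO2. Among them was the transcript with most WT body footprints, at a mean of 533 CPM in WT, 732 CPM in KO1 and 509 CPM in KO2, and of 620 CPM in WT and 140 CPM in knockout testis of set 2.

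At a high ratio of testis to body footprints, the body difference was larger for the 226 than for the comparison transcripts. The comparison transcripts had not met the footprint criterion in both testis sets. The 2 groups thus differed in testis change by choice, and the comparison does not isolate the ratio. At a ratio of 20 or more, 161 of the 226 had median body changes of -1.44 in KO1 and -1.78 in KO2, and the 557 comparison transcripts had -0.13 and -0.30. Their WT body levels differed, at a median of 6.4 CPM against 2.83 CPM. At a ratio of 10 to 20 the medians were -1.01 and -1.16 for 32 of the 226, against -0.15 and -0.26 for 520 comparison transcripts. Across the 188 loci, changes in set 2 testis and in body gave Pearson's r of 0.42 for KO1 and 0.40 for KO2 (Spearman's rho 0.42 and 0.38), from libraries that do not overlap. Whether the body footprints of these transcripts came from testis in the samples was not tested.

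**Figure D5:**
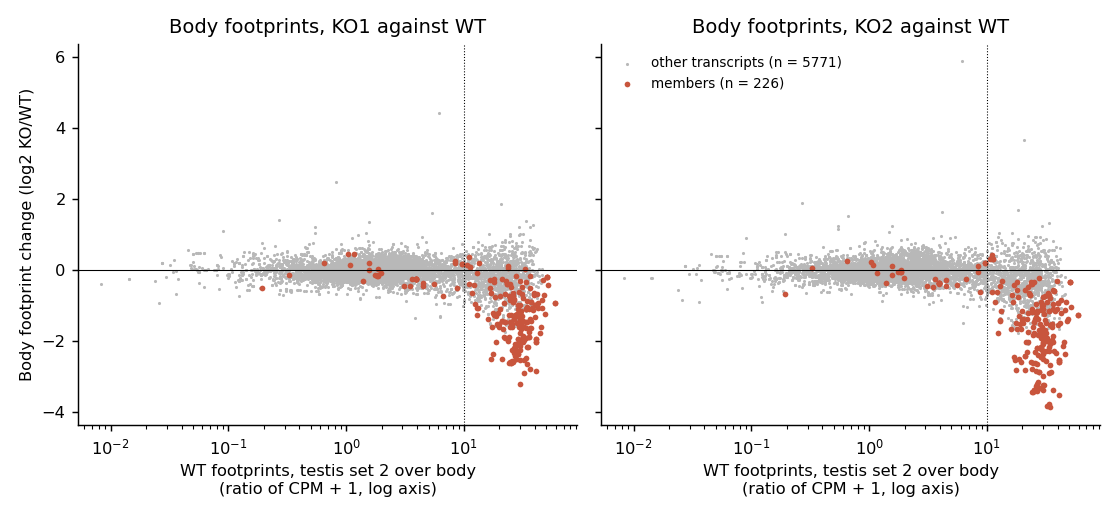
Body footprint change in KO1 (left) and KO2 (right), as log2 of knockout over WT (CPM plus 1), against the ratio of WT footprints in set 2 testis to body on a log axis, for the 226 members and the 5771 other transcripts; the dotted line marks a ratio of 10. Members right of the line have median changes of -1.36 and -1.60, and the 33 left of it have -0.16 and -0.22.

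Footprints of the 226 lay lower in KO2 than in KO1 on balance, by an amount that depended on single libraries. Single transcripts did not pass the test. Over the 163 tested, the median log2 fold change of KO2 over KO1 was -0.47, with 135 below 0, against 0.00 for all transcripts tested. Leaving out a library moved this median between -0.25, without KO1 replicate 2, and -0.72, without KO1 replicate 1. Comparing KO2 with KO1, edgeR called 0 of the 163 transcripts tested, with 42 at an unadjusted p under 0.05, while of all 13840 transcripts tested 5.87% had such a p and 0.0506% were called. DESeq2 gave an adjusted p for 72 of them and called 0, with 27 of the 163 at an unadjusted p under 0.05. With no filter on low counts, edgeR called 5 of the 226, all lower in KO2, and 130 of all 18437 transcripts. Some edgeR fits that left out a library also called a few of the transcripts, but with 1 library in a group those calls are not interpreted. Of the transcripts that fell against WT, 100 did so in both lines, 1 in KO1 alone and 20 in KO2 alone, and these counts are no test of the lines against each other.

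Second-set testis RNA-seq likewise entered the choice only through the totals used to drop neighbours, and at its low depth it could test 111 of the 226. Of these, 4 transcripts in 3 loci fell and 1 rose (edgeR, adjusted p under 0.05). Of all 2969 transcripts tested, 10.2% fell, 10.1% rose and 20.3% changed in either direction. The 2969 were not limited to transcripts with steady first-set RNA-seq as the 226 were, so these shares are not like for like. The median count of the 226 was only 8 to 10 in each second-set RNA-seq library. The 226 made up 2.96% of both WT libraries and 2.86% ± 0.223 (SD, n = 2) of the knockout libraries, a difference within the spread. The median change over all 226 was 0.02, with 103 below 0, and single values ranged from -3.58 to 3.80. Both knockout libraries were below both WT libraries for 45 transcripts and above them for 37, against 15.5% and 21.1% of the 9254. FBtr0078579 fell, with 180 and 155 counts (1003 and 970 CPM) in WT and 111 and 57 (531 and 381 CPM) in knockout. Its log2 fold change was -1.08 (SE 0.204, edgeR adjusted p = 0.0054). Its first-set RNA-seq was 65.7 and 71.3 CPM in WT and 63.5 and 63.1 CPM in knockout, so its WT level differed widely between the sets. FBtr0345445 fell, with 17 and 14 counts in WT and 6 and 4 in knockout and a log2 fold change of -1.67 (SE 0.513, edgeR adjusted p = 0.0436). FBtr0112366 rose, with 21 and 18 counts in WT and 42 and 47 in knockout and a log2 fold change of 1.15 (SE 0.319, edgeR adjusted p = 0.029). DESeq2 called 1 of the 111 tested, which fell, and 293 of all 2969 transcripts. The edgeR count was 2 without WT replicate 1, 1 without WT replicate 2 and 3 without knockout replicate 1, and with no filter it was 2 of 224, against 3.95% of all transcripts.

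Body RNA-seq was shallower still, with 87 to 122 of the 226 transcripts at 0 counts in a library, and 29 could be tested. Their share was 1.94% ± 0.0486 (SD, n = 2) in WT, 2.06% ± 0.00607 in KO1 and 1.7% ± 0.0678 in KO2 (n = 2 each). In KO1, 1 rose and 0 fell, while of the 1706 transcripts tested 3.75% rose, 1.17% fell and 4.92% changed in either direction. It was FBtr0076638, with 26 and 28 counts in WT and 67 and 159 in KO1 and a log2 fold change of 1.44 (SE 0.302, edgeR adjusted p = 0.00149), the same transcript whose body footprints fell. No call remained without KO1 replicate 2. In KO2, 1 rose and 1 fell, while 2.75% of all tested rose, 1.11% fell and 3.87% changed. FBtr0084140 rose from 3 and 3 counts to 21 and 15 (log2 fold change 2.26, SE 0.653, edgeR adjusted p = 0.0358). FBtr0339118 fell from 19 and 13 counts to 3 and 6 (log2 fold change -2.05, SE 0.609, edgeR adjusted p = 0.0459). The KO2 count was 0 with DESeq2, with no filter and in a fit of KO2 and WT alone. It was also 0 without either WT replicate or KO2 replicate 1, and 1 without KO2 replicate 2 or either KO1 replicate. A transcript-level change of the 226 in body was therefore not resolved at this depth in either direction.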

How the data were processed

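Ribosome profiling and RNA-seq libraries, 28 in 14 groups of 2, were analysed. The authors deposited raw counts per FlyBase transcript, and a further deposited column of another kind, used here as length, whose unit is not stated. The submitters' processing notes name dm6, STAR 2.7.0a and CASAVA 1.8; the counting tool, annotation and use of strand are not given in the sources used here.

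Of 34703 transcripts listed, 4363 had no length and 0 counts. In file order, a transcript whose summed count lay within 5% of the last one kept was dropped, which left 18851. CPM used the total of these transcripts. Those of the 226 that lay up to 50 lines apart, with counts that differed by at most 0.1 in summed distance, were grouped into loci.

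Counts of all 18851 transcripts were tested with edgeR 4.0.16 (R 4.3.3; quasi-likelihood test, TMM, filterByExpr at a minimum count of 10, Benjamini-Hochberg adjustment, called at an adjusted p under 0.05). The 3 body groups shared 1 fit. Scripts were tested on simulated data. Alternatives were DESeq2 1.42.0, DESeq2 size factors, no filter, no dropping of neighbours, a replicate block, 2 groups alone, leaving out each library and, chosen after seeing the data, library totals in place of TMM. Intervals between samples rest on 2 libraries a group.

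The rule for named transcripts took the 2 with the lowest mean testis footprint change, which proved to be 1 locus. The other named transcripts were chosen after their values were seen. The transcripts and classes were chosen with earlier results of these data known. Gene lists could not be used, since identifiers were not paired with names.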

Additional observations from a re-analysis of the deposited data

How the results depend on the processing

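The number of transcripts meeting the criteria was 226. It was 347 with no dropping of neighbours, 112 at a footprint change of -1.5 or lower and 149 with RNA-seq changes within 0.25. It was 227 and 204 at pseudocounts of 0.5 and 5, 185 at a WT level of 50 CPM, and 209 to 239 when each testis library was left out. Leaving out each library in turn gave 26 to 118 calls in body footprints of KO1, 57 to 133 in KO2, and 0 to 3 between the lines. In RNA-seq it gave 0 to 1 for body KO1, 0 to 1 for body KO2 and 1 to 6 for set 2 testis. With DESeq2, body footprints of KO1 gave 61 calls, body RNA-seq of KO2 gave 0 and set 2 RNA-seq gave 1. With no filter, KO2 against KO1 gave 5, body RNA-seq of KO2 gave 0 and set 2 RNA-seq gave 2. Body RNA-seq of KO2 gave 0 in a fit of 2 groups alone. The cause of these shifts was not tested. The body RNA-seq change of FBtr0076638 in KO2, not called at 0.22, was -0.02 without KO2 replicate 1 and at most 0.436 when other libraries were left out. For named transcripts, 177 values under alternatives kept their direction and side of the threshold and 32 kept only their direction.

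Same-numbered libraries did not deviate together throughout (r of -0.063 to 0.121 in body footprints, -0.024 to 0.027 in body RNA-seq, -0.004 in set 2 RNA-seq), so the numbers were not taken as pairs. With a replicate block, 93 and 106 transcripts were called in body footprints of KO1 and KO2, 1 between the lines, 1 and 2 in body RNA-seq and 7 in set 2 RNA-seq.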
